A study of Saccharomyces cerevisiae with 8 samples.

Results

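Budding yeast cells lacking PSH1 were compared with cells that carried it, in strains with and without CAC2, while the centromeric histone Cse4 was overproduced. The 4 libraries lacking PSH1 were those of the psh1 and psh1 cac2 mutants, and the 4 with PSH1 were those of wild type (WT) and the cac2 mutant, so that all 8 libraries of the study entered the comparison. They were chosen by the genotype in the labels, and CAC2 state entered as the other factor of the design. Each genotype was 1 strain (GH69 for WT, GH182 for cac2, GH72 for psh1 and GH194 for psh1 cac2) grown as 2 cultures, so p-values measure the spread between cultures of 1 strain, and a genotype cannot be told apart from other differences between its strain and the rest. In all 4 genotypes overnight raffinose cultures were diluted to an OD600 of 0.1, grown for 2 h at 30 °C, given galactose to 4% to switch on the Cse4 construct, and harvested after a further 10 h. No library without galactose was used here, so every difference below is one between strains that overproduce Cse4. RNA was depleted of ribosomal RNA and sequenced with a strand-specific kit.

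Cse4 is the histone H3 variant that marks the centromere. Psh1 is a RING ubiquitin ligase that recognizes Cse4 and marks it for destruction by the proteasome, which limits its spread along chromosome arms. Cac2 is a subunit of CAF-1, the chaperone that hands newly made histones H3 and H4 to replicating DNA. The averaged difference is the mean of psh1 minus WT and psh1 cac2 minus cac2, on the log2(RPKM + 1) scale, where RPKM are reads per kilobase scaled to library size as the authors normalized them. These 2 component differences share no library.

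The labels were checked on the deleted genes. PSH1 (YOL054W, chrXV:228614-229834, + strand) stood at 28.1 and 26.9 in WT against 0 and 0.0457 in psh1, and 25 and 26 in cac2 against 0.0494 and 0.0243 in psh1 cac2, in RPKM. Its averaged difference was -4.74 (log2, SE 0.0652, limma adjusted p = 1.38e-08). CAC2 RNA was 19 and 19.5 in WT against 19.3 and 22.9 in psh1, and 0.0233 and 0.0438 in cac2 against 0.15 and 0.0843 in psh1 cac2, and did not differ with PSH1 state past the threshold (0.12, limma adjusted p = 0.334). The libraries held 30767522 to 34561763 recovered reads. Along the second principal component, which held 17% of the variance, the 4 libraries with PSH1 had scores of 1.14 to 7.3 and the 4 lacking it -11.2 to -0.535. The receptor gene of MATa cells, STE2, had 267 to 421 RPKM and that of MATα cells, STE3, 4.43 to 8.37. BAR1, another MATa gene, was listed at 0 in all 8 libraries.

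Loss of PSH1 gave many small changes and few large ones. Of 6366 features tested (mean RPKM of 1 or more), 1436 (22.6%) passed an adjusted p of 0.05 by limma with Benjamini-Hochberg adjustment. Of all tested, 759 were higher (11.9%) and 677 lower (10.6%). The median difference was 0.26 among those that rose and -0.25 among those that fell. The averaged count of every gene list below stands beside these shares of 11.9% and 10.6%. No feature rose by 2-fold or more and 9 fell that far, while 27 rose and 41 fell by at least 1.5-fold. Those that fell by 2-fold or more were PSH1, PDC6, PMA2, FRM2, AAD6, SPS100 and the frames YCL048W-A, YFL057C and YDL218W. Without 1 library the count of 1436 went down to 546 (psh1 cac2 replicate 1), 914 (psh1 cac2 replicate 2), 819 (cac2 replicate 1), 823 (psh1 replicate 1) and 744 (psh1 replicate 2). Scaling to total reads instead of the authors' library sizes shifted the median feature by 0.0508 (log2) and gave 1258 higher and 408 lower.

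The direction was mostly shared between the CAC2 states. Of the 1436 features, 1409 had the same sign in the strains with CAC2 and in those without it, against 66.8% of all 6366 tested, though the averaging itself favours features with like signs. Among features that rose, the median was 0.31 with CAC2 and 0.22 without it, and among those that fell -0.28 and -0.21. Within each CAC2 state, the libraries lacking PSH1 did not overlap those with PSH1 for 669 of the 759 higher and 547 of the 677 lower features. Over all features tested, 29.8% were separated in this way (16.1% higher and 13.7% lower). Features were called on these same libraries, which favours separation here and in the counts that follow. The 4 libraries lacking PSH1 lay all above the 4 with it for 359 of the 759, and all below for 248 of the 677, against 7.04% and 5.55% of all tested.

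Taken alone, psh1 against WT gave 926 calls (14.5%; 487 or 7.65% higher and 439 or 6.9% lower) and psh1 cac2 against cac2 gave 57 (0.895%). Of the averaged calls, 631 passed in neither. In both states 20 features rose and 6 fell. The 6 that fell were PSH1, PHO84, SNR14, CRR1, the tRNA gene tN(GUU)P and the frame YNL277W-A, and among the 20 that rose were HUG1, CYC7, POL30, CLN1, TOS4, TOS6, PCL1, YOX1, RNR4 and SCW10. The count for psh1 cac2 against cac2 was 2 without cac2 replicate 1, 4 without cac2 replicate 2, 2 without either library of psh1 cac2, and 27 to 32 without a psh1 or WT library, and the 26 shared calls went to between 1 and 8. For psh1 against WT, 203 and 484 calls were left without WT replicates 1 and 2, and 268 and 93 without psh1 replicates 1 and 2. The interaction, that is, the difference between the CAC2 states, had 1 call (0.0157%), a tRNA gene, which became 41 calls without cac2 replicate 2, and 866 features had an unadjusted p under 0.05 there.

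**Figure D1:**
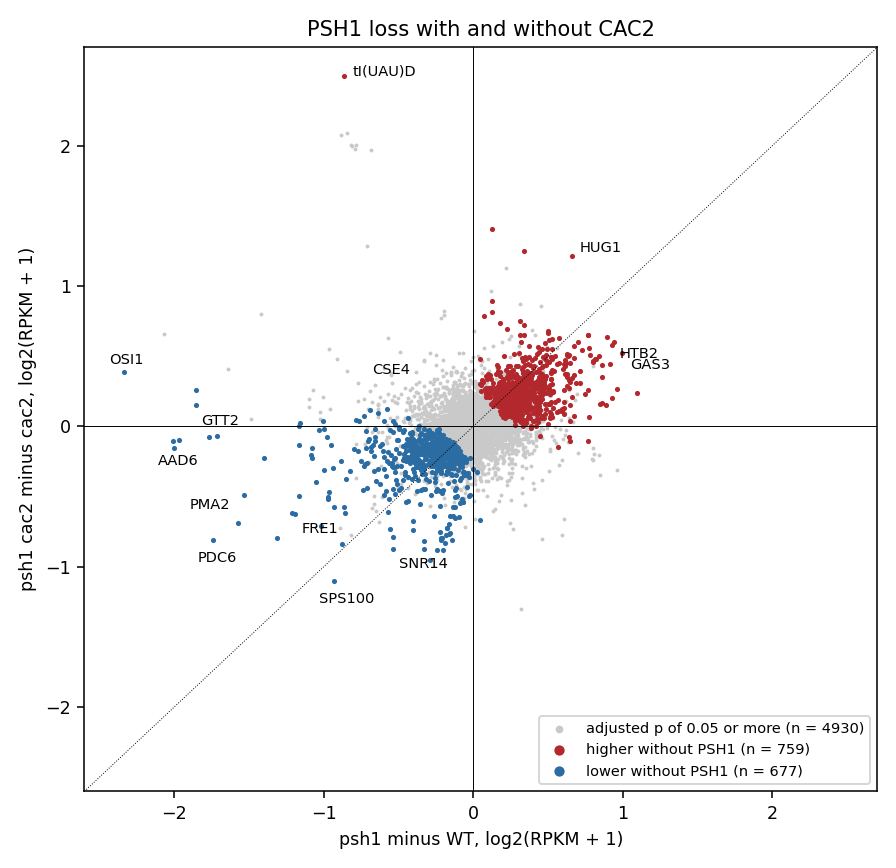
Each point is 1 of the tested features, with psh1 minus WT on the horizontal axis and psh1 cac2 minus cac2 on the vertical axis, both as differences in log2(RPKM + 1). Red points (759) were higher and blue points (677) lower without PSH1 in the averaged test, grey points did not pass, the dotted line marks equal differences, and PSH1 lies outside the axes at -4.80 and -4.68. Most coloured points lie in the upper right and lower left, while GTT2 and AAD6 lie far to the left but near 0 on the vertical axis.

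All 10 histone genes rose. HTA2 and HTB2, which encode histones H2A and H2B and lie head to head around a shared intergenic region on chromosome II, showed the largest differences. HTA2 (YBL003C, chrII:235394-235792, - strand) had RPKM of 51.1 and 55.1 in WT against 109.9 and 90.4 in psh1, and 39.7 and 50.9 in cac2 against 78.8 and 62.7 in psh1 cac2. Each of the 4 libraries lacking PSH1 lay above each of the 4 with it. Its averaged difference was 0.77 (log2, SE 0.107, limma adjusted p = 0.00632), made of 0.90 with CAC2 and 0.63 without it. For HTB2 (YBL002W, chrII:236492-236887, + strand) the values were 81.2 and 80 in WT against 163 and 146 in psh1, and 70.8 and 75.8 in cac2 against 125 and 96.7 in psh1 cac2. Again the groups did not overlap, and the difference was 0.75 (log2, SE 0.0836, limma adjusted p = 0.00435). The other core histone genes were HHF2 (0.57) and HHF1 (0.38) for H4, HHT2 (0.38) and HHT1 (0.28) for H3, and HTB1 (0.27) and HTA1 (0.25). The linker histone gene HHO1 (0.49) and HTZ1 (0.36), for the H2A variant H2A.Z, rose too. The H3 pair and the H4 pair are near-identical in coding sequence, so the share of reads given to each copy is uncertain. The list's median was 0.38 (0.48 with CAC2 and 0.32 without it), beside -0.01 over all features. Taken alone, 10 rose in psh1 against WT and 0 in psh1 cac2 against cac2 by limma, where 10 were higher at an unadjusted p under 0.05. As a share of all recovered reads histone genes made up 0.0881% and 0.0915% in WT against 0.129% and 0.123% in psh1, and 0.0821% and 0.0871% in cac2 against 0.113% and 0.108% in psh1 cac2. Whether more cells in S phase or more RNA per cell lies behind such a value cannot be told apart in bulk RNA, and this holds for every gene below.

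Histone genes are switched on at the start of S phase by Spt10, which binds a paired element, the Spt10 histone element, searched on both strands from 500 bases before the start codon, leaving out the nearest 100. It was found upstream of 8 of 10 histone genes and of 2.51% of 5736 protein-coding genes tested. These 8 genes form 4 divergent pairs, and both genes of a pair share the same element or elements. That window was added after the data were seen, and in the window from 250 bases before to 50 after the start codon the element was upstream of 0 of 10 histone genes and 1.52% of all tested. Stretches that hold it are shown in the direction of the gene, from assembly R64, with the element in capitals, because these are the promoters of the genes that rose as a group, with a single stretch for HTA2 and HTB2 and the other pairs alike.
HTA2 (chrII:236096-236134, - strand): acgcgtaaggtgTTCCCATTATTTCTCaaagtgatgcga
HTA1 (chrIV:915102-915163, + strand): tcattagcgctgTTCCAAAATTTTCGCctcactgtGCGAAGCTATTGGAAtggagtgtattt
HHT1 (chrII:255932-255970, + strand): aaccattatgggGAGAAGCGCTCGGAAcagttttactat
HHT2 (chrXIV:576334-576372, - strand): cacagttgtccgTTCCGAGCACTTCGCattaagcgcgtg
Among 10 regulators of histone genes, RTT109, the H3 lysine acetyltransferase (0.27), rose and YTA7 (-0.15) fell, which is 10% each beside 11.9% and 10.6% of all features. SPT10 itself had a difference of -0.09 (limma adjusted p = 0.272). None of 18 histone chaperone genes passed by limma, with 1 higher and 1 lower at an unadjusted p under 0.05, and their median was 0.01.

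Most cell-cycle genes of G1/S and G2/M rose without PSH1, and few of M/G1 did. Of 52 G1/S genes 34 rose and 0 fell (65.4%, against 11.9% of all features), with a median of 0.23 (0.24 with CAC2 and 0.21 without it). POL30 (YBR088C, chrII:424990-425766, - strand), which encodes the replication clamp PCNA, had RPKM of 45.5 and 39.6 in WT against 58.5 and 62.8 in psh1, and 29.3 and 31.1 in cac2 against 48.7 and 48.5 in psh1 cac2. The libraries lacking PSH1 were all above those with it, and the difference was 0.58 (log2, SE 0.0554, limma adjusted p = 0.00426). The G1 cyclin gene CLN1 rose by 0.50, the cyclin gene PCL1 by 0.48, the cohesin gene MCD1 by 0.48, the repressor genes YOX1 by 0.44 and YHP1 by 0.66, and TOS4 by 0.52. GIC1, whose product is an effector of the polarity GTPase Cdc42, had RPKM of 7.2 and 8.02 in WT against 13.3 and 12.2 in psh1, and 7.76 and 7.26 in cac2 against 11.5 and 10.4 in psh1 cac2. Its difference was 0.58 (log2, SE 0.06, limma adjusted p = 0.00426). SWI4, for the DNA-binding subunit of the G1/S activator SBF, had a difference of 0.02 (limma adjusted p = 0.806). Without psh1 cac2 replicate 1 the count of 34 was 22.

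Of 35 G2/M genes 25 rose and 0 fell (71.4%), with a median of 0.26 (0.28 with CAC2 and 0.24 without it). The mitotic cyclin gene CLB1 had RPKM of 25.6 and 34.4 in WT against 59.8 and 53.9 in psh1, and 23.3 and 35.2 in cac2 against 42.1 and 37 in psh1 cac2. Groups did not overlap, with a difference of 0.68 (log2, SE 0.137, limma adjusted p = 0.0138), a call lost without psh1 replicate 1 (0.64) or psh1 cac2 replicate 1 (0.64). The polo kinase gene CDC5 (0.43), the chitin synthase gene CHS2 (0.50), the cytokinesis gene HOF1 (0.54), the transcription factor genes SWI5 (0.40), FKH1 (0.34) and NDD1 (0.31), and the eisosome gene SUR7 (0.63) rose as well. The count was 15 without cac2 replicate 1, 9 and 16 without psh1 cac2 replicates 1 and 2, and 11 without psh1 replicate 1. Of 29 M/G1 and daughter-cell genes 2 rose (MCM2 0.23, CDC6 0.19) and 4 fell (PRY3 -0.19, SCW11 -0.20, DSE1 -0.21, DSE2 -0.19), which is 6.9% and 13.8% beside 11.9% and 10.6% of all features.

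SBF binds the element CGCGAAA, searched on both strands. In the same upstream window it was present upstream of 8 of 19 protein-coding genes among the 20 with the largest rise of those called, with a symbol, and separated within each CAC2 state, of 13.3% of genes that rose, 2.88% of those that fell and 5.39% of all tested. In the window from 250 bases before to 50 after the start codon the shares were 10.5%, 7.2%, 1.54% and 3.61%. The upstream stretches of the 8 genes are shown in gene direction from R64, with the element in capitals. They include cell wall, polarity and replication genes and also HO, whose difference was 0.96 with CAC2 and 0.27 without it.
GAS3 (chrXIII:696608-696646, + strand): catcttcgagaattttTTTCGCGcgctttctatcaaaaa
SCW4 (chrVII:1050369-1050407, - strand): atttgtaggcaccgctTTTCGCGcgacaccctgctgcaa
SCW10 (chrXIII:880612-880650, - strand): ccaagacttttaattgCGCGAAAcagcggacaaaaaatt
CWP1 (chrXI:260657-260695, + strand): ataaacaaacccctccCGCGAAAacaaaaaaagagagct
PRY2 (chrXI:463566-463619, + strand): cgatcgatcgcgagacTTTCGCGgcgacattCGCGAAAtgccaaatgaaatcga
GIC1 (chrVIII:222747-222785, - strand): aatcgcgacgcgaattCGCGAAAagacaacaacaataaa
POL30 (chrII:425945-425983, - strand): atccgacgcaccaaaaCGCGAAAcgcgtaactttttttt
HO (chrIV:48407-48445, - strand): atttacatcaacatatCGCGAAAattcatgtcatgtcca
The element ACGCGT, bound by the related factor MBF, was found upstream of 59.6% of G1/S genes against 4.95% of all, and GTAAACA, bound by forkhead factors, upstream of 51.4% of G2/M genes against 8.16%. In the nearer window these shares were 44.2% against 3.16% and 42.9% against 6.71%. The lists group genes by cell-cycle phase, so such shares describe the lists and not the loss of PSH1. Among all protein-coding genes that rose, the upstream shares were 9.56% for ACGCGT and 13.2% for GTAAACA. In the nearer window they were 5.54% and 10.8%. All elements here and below were searched on both strands. The SBF and MBF elements share the letters CGCG and can overlap. A match of letters describes a promoter and does not show binding.

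**Figure D2:**
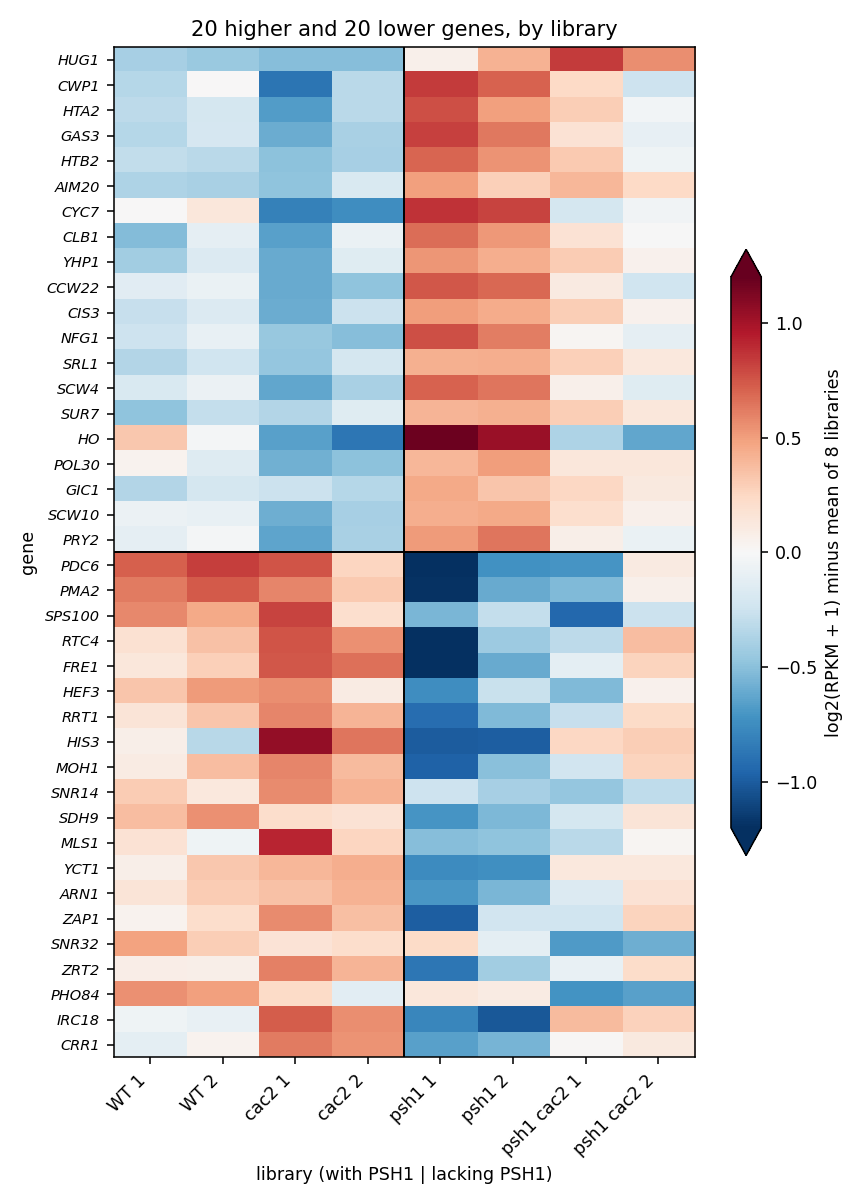
Rows are the 20 genes with the largest rise and the 20 with the largest fall in the averaged comparison among called genes that have a symbol and whose libraries are separated within each CAC2 state, columns are the 8 libraries, and the colour is log2(RPKM + 1) minus the mean of the gene over the 8 libraries. The vertical line parts libraries with PSH1 from those lacking it. Genes were chosen for this pattern, so genes such as FRM2, AAD6 and GTT2, which fell further than some of those shown, are absent. HUG1 is reddest in psh1 cac2, whereas HO, HIS3 and IRC18 follow CAC2 state as well as PSH1 state.

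Some cell wall genes rose, several of them among the 20 genes in the plot of named genes by library. Of 47 cell wall genes 17 rose (36.2%) and 2 fell (4.26%), with a median of 0.09 (0.18 with CAC2 and 0.07 without it). GAS3 (YMR215W, chrXIII:696796-698370, + strand), for a putative glucanosyltransferase of the wall, had RPKM of 17.6 and 19.6 in WT against 40.7 and 35.7 in psh1, and 14.7 and 17.1 in cac2 against 25.6 and 21.2 in psh1 cac2. The 4 libraries lacking PSH1 were above all others, and the difference was 0.76 (log2, SE 0.0805, limma adjusted p = 0.00426), with 1.00 with CAC2 and 0.53 without it. For the glucosidase gene SCW10 (YMR305C, chrXIII:879063-880232, - strand) the values were 118 and 116 in WT against 168 and 170.3 in psh1, and 82.2 and 93.5 in cac2 against 142 and 129 in psh1 cac2. That difference was 0.57 (log2, SE 0.0583, limma adjusted p = 0.00426). CWP1, for a wall mannoprotein, had RPKM of 66.6 and 84.7 in WT against 152 and 139 in psh1, and 45.5 and 67.4 in cac2 against 100.2 and 71.1 in psh1 cac2, so that psh1 cac2 replicate 2 lay below WT replicate 2. Its difference was 0.77 (log2, SE 0.152, limma adjusted p = 0.0131). Others that rose were CIS3 (0.65), SRL1 (0.63), SCW4 (0.63), GAS1 (0.45), CCW12 (0.36) and UTR2 (0.52). CCW22 (0.65) is a close copy of CCW12 and its value is uncertain.

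HUG1, which encodes a small inhibitor of ribonucleotide reductase and is induced by DNA damage, rose more than any other named gene. HUG1 (YML058W-A, chrXIII:158760-158966, + strand) had RPKM of 5.55 and 5.35 in WT against 8.03 and 10.5 in psh1, and 5.06 and 5.06 in cac2 against 14.4 and 11.8 in psh1 cac2. Its lowest library lacking PSH1 was above its highest with PSH1, and the difference was 0.94 (log2, SE 0.0924, limma adjusted p = 0.00426), with 0.66 with CAC2 and 1.21 without it (interaction adjusted p = 0.289). It is short and its levels are low. In the DNA damage list, 9 of 28 genes rose (32.1%) and 6 fell (21.4%), beside 11.9% and 10.6% of all features. The list's median was -0.01 (-0.07 with CAC2 and 0.08 without it), so it did not move in 1 direction as a whole. Those that rose included the ribonucleotide reductase genes RNR4 (0.40) and RNR1 (0.42), the checkpoint kinase genes DUN1 (0.36) and RAD53 (0.18), and PLM2 (0.41). Among those that fell were the kinase genes MEC1 (-0.25) and TEL1 (-0.16), and the nucleotide excision repair genes RAD2 (-0.25) and RAD16 (-0.20). RNR1 is also a G1/S gene. Without psh1 cac2 replicate 1, 5 genes of the list rose.

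Most genes of oxidative phosphorylation rose. Of 46 oxidative phosphorylation genes 37 rose and 0 fell (80.4%), with a median of 0.28 (0.40 with CAC2 and 0.15 without it). None passed the interaction test by limma, though 24 had a smaller difference without CAC2 at an unadjusted p under 0.05. CYC7 (YEL039C, chrV:79636-79977, - strand), for the minor cytochrome c isoform, had RPKM of 112 and 123 in WT against 204 and 197 in psh1, and 63.4 and 66.2 in cac2 against 96.2 and 108 in psh1 cac2. Within each CAC2 state the libraries lacking PSH1 were higher, while psh1 cac2 stayed below WT. The difference was 0.71 (log2, SE 0.0578, limma adjusted p = 0.00346). CYC1 (0.56), CYT1 (0.33), COX12 (0.37), ATP2 (0.33) and QCR2 (0.34) also rose. Without psh1 cac2 replicate 1 the count of 37 was 23. Of 29 citrate and glyoxylate cycle genes 10 rose and 1 fell (34.5% and 3.45%), beside 11.9% and 10.6% of all features. SDH4 (0.36) and LSC1 (0.30) were among those that rose, and MLS1, for malate synthase, fell (-0.64). The list's median was 0.16 (0.33 with CAC2 and 0.00 without it). The 10 became 3 to 6 without WT replicate 1, cac2 replicate 2 or any 1 library lacking PSH1. They were 3 in a model without the interaction. The MLS1 call was lost without psh1 replicate 1 or 2 or psh1 cac2 replicate 1. The element CCAAT, bound by the HAP complex, lay upstream of 89.1% of the oxidative phosphorylation genes and 55.5% of all tested. In the nearer window the shares were 82.6% and 43.8%. Among all protein-coding genes that rose, 58.7% had the element upstream and 47.1% in the nearer window.

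Ribosomal protein genes of both compartments rose, and ribosome biogenesis genes did not. In the mitochondrial ribosome, 56 of 74 protein genes rose and 0 fell (75.7%), including MNP1 (0.35), MRPL7 (0.32) and MRPL28 (0.25), with a median of 0.18 (0.23 with CAC2 and 0.13 without it). The cytoplasmic ribosomal protein list had 83 of 139 genes higher and 0 lower (59.7%), with a median of 0.27 (0.31 with CAC2 and 0.24 without it). RPL9B (0.50), ASC1 (0.55) and RPS20 (0.39) were examples, and many of these genes are paralogous pairs that may share reads. Their median level relative to the mean of 8 libraries, in log2, was 0.16 and -0.09 in WT against 0.34 and 0.34 in psh1, and -0.22 and -0.41 in cac2 against 0.01 and -0.14 in psh1 cac2. The highest library with PSH1, WT replicate 1, was above both psh1 cac2 libraries. Of 109 ribosome biogenesis genes 0 rose and 0 fell by limma, with 0 higher and 8 lower at an unadjusted p under 0.05, with a median of -0.09. The mitochondrial count of 56 ran from 14 (without psh1 cac2 replicate 1) to 36 over the 8 fits that each left out 1 library. The cytoplasmic count of 83 was 10 without psh1 cac2 replicate 1, 15 and 24 without psh1 replicates 1 and 2, 34 without cac2 replicate 2 and 50 without WT replicate 2, and 55 without a filter on low values.

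**Figure D3:**
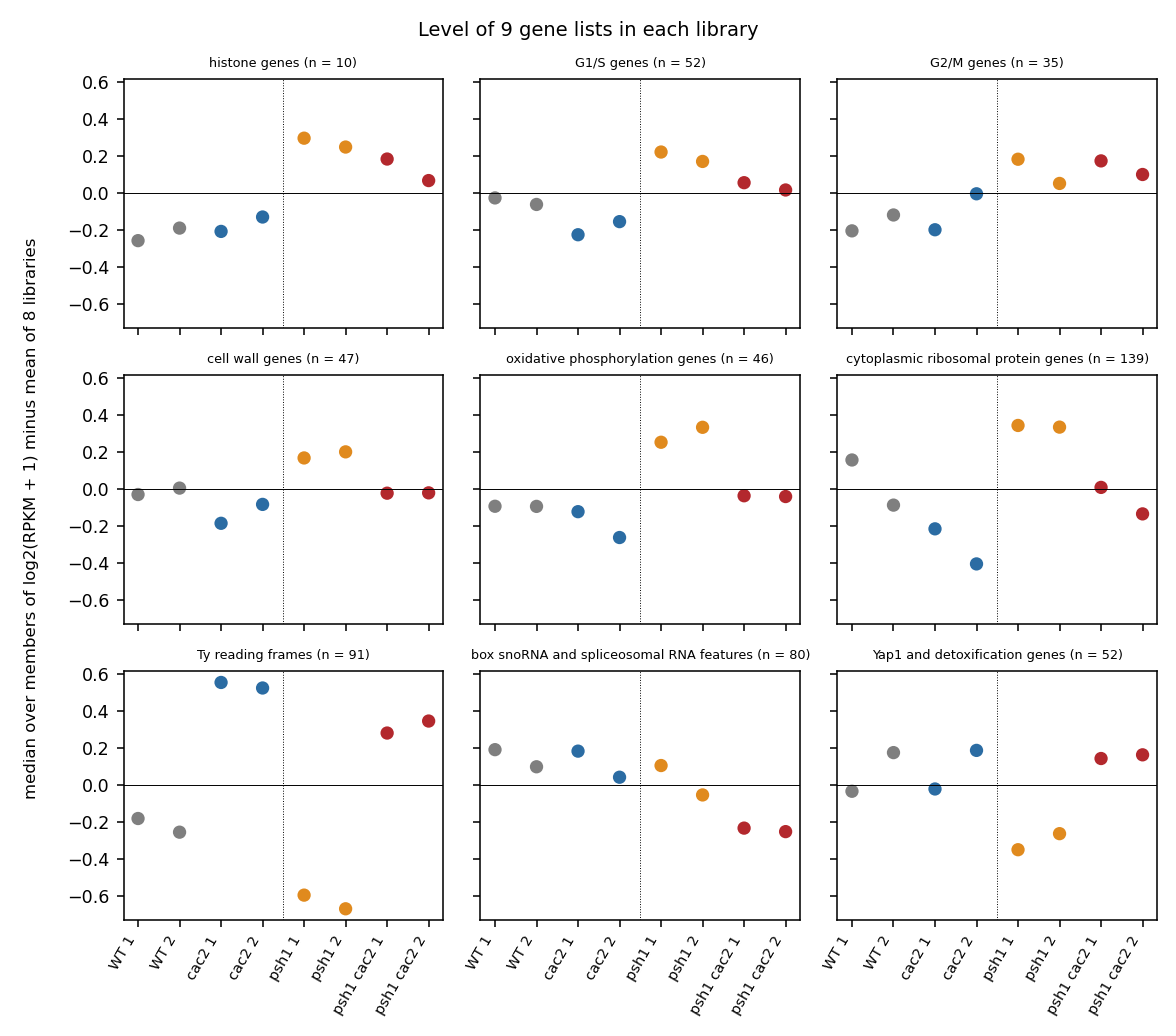
For 9 gene lists, each point is the median over the list's tested members, in 1 library, of log2(RPKM + 1) minus the gene's mean over the 8 libraries. Grey is WT, blue cac2, orange psh1 and red psh1 cac2, and the dotted line parts libraries with PSH1 from those lacking it. Histone and G1/S genes are higher in all 4 libraries lacking PSH1, Ty frames are lower within each CAC2 state, and the Yap1 and detoxification genes are low in the psh1 libraries alone.

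Galactose was the agent that induced Cse4. Genes of the galactose regulon rose without PSH1, while CSE4 fell in psh1 against WT and did not pass in the averaged comparison. Of 12 galactose regulon genes 6 rose and 0 fell (50%), with a median of 0.29 (0.37 with CAC2 and 0.15 without it). GAL1 rose by 0.50 (log2), GAL10 by 0.36, GAL7 by 0.34, the permease gene GAL2 by 0.50, the inducer gene GAL3 by 0.24 and GCY1 by 0.48, while the activator gene GAL4 had 0.00 (limma adjusted p = 0.965). CSE4 (YKL049C, chrXI:346075-346764, - strand) had RPKM of 16620 and 14590 in WT against 10130 and 9616 in psh1, and 17960 and 19970 in cac2 against 23550 and 22800 in psh1 cac2. It was lowest in psh1 and highest in psh1 cac2. The averaged difference was -0.18 (log2, SE 0.0568, limma adjusted p = 0.0529). With CAC2 the fall of -0.66 passed (limma adjusted p = 0.0071), and without it the difference of 0.29 did not (limma adjusted p = 0.102). The average of these opposite signs describes neither state. The interaction did not pass (limma adjusted p = 0.0803). The averaged p lies close to the threshold and passed it in 5 of the alternative fits, among them the one without WT replicate 2 (-0.23). HIS3, a histidine synthesis gene widely used as a marker, had RPKM of 5917 and 4474 in WT against 2822 and 2825 in psh1, and 11700 and 8773 in cac2 against 6689 and 6898 in psh1 cac2. It fell by 0.72 (log2, SE 0.11, limma adjusted p = 0.00637). Whether a construct in these strains carries HIS3, and which promoter drives the CSE4 construct, is not given in the sources used here.

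**Figure D4:**
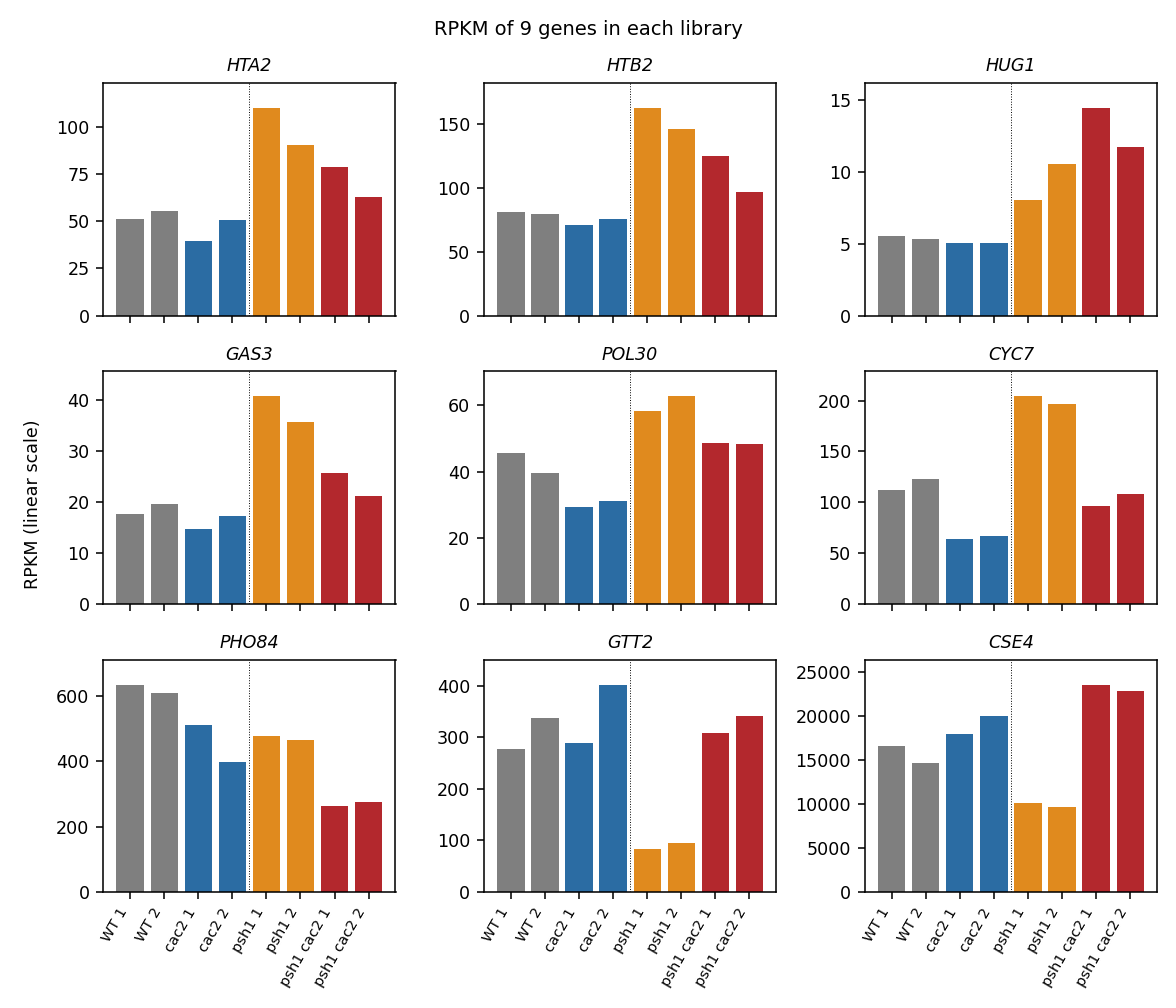
Bars give RPKM in each library for 9 genes on linear axes that start at 0, with WT in grey, cac2 in blue, psh1 in orange and psh1 cac2 in red. HTA2, HTB2, HUG1, GAS3 and POL30 are higher in each of the 4 libraries lacking PSH1, CYC7 and PHO84 differ within each CAC2 state, GTT2 is low in psh1 alone, and CSE4 runs in opposite directions in the CAC2 states.

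Apart from PSH1 itself, few genes for factors that act on Cse4 protein passed. Called in either direction were 17.9% of the 28 others, beside 22.6% of all features. Of 29 genes for Cse4 turnover 0 rose and 6 fell, PSH1, the deleted gene, among them. The other 5 of 28 (17.9%, beside 10.6% of all features) were the F-box gene MET30 (-0.33), the N-recognin gene UBR1 (-0.16), the SUMO ligase gene NFI1 (-0.15), the ubiquitin-conjugating enzyme gene UBC5 (-0.19) and the SUMO protease gene ULP1 (-0.13). PSH1 passed in every alternative fit, and 0 to 2 of the others passed without WT replicate 2 or any 1 library of the 3 mutants, and 1 with scaling to total reads, where the list's median of -0.01 became 0.04. Of 50 kinetochore and passenger genes 9 rose and 1 fell (18% and 2%), beside 11.9% and 10.6% of all features. Called in either direction were 20%, beside 22.6% of all features, and the median was 0.06. CTF19 fell (-0.39), and the 9 that rose included SPC19 (0.29), NUF2 (0.21) and the Aurora kinase gene IPL1 (0.27). These 9 became 1 without psh1 cac2 replicate 1 and 3 to 5 without WT replicate 2, cac2 replicate 1, psh1 cac2 replicate 2 or either psh1 library, 5 without a filter on low values and 15 with scaling to total reads. None of 34 proteasome genes passed by limma, with 0 higher and 1 lower at an unadjusted p under 0.05, with a median of 0.04. Of 176 genes within 10 kb of a centromere 20 rose and 20 fell (11.4% each), close to the share over all features, and their median was -0.02. Without psh1 cac2 replicate 1 or psh1 replicate 2 the 20 increases were 9 and 10, and with scaling to total reads they were 33.

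Ty retrotransposon transcripts fell in the averaged comparison. Of 91 gag or gag-pol reading frames 86 fell and 0 rose (94.5%), with a median of -0.32 (-0.41 with CAC2 and -0.23 without it). Ty copies are near-identical and reads cannot be assigned to 1 copy with certainty, so the 91 frames are far from independent. Taken alone, 81 fell in psh1 against WT and 0 in psh1 cac2 against cac2 by limma, where 83 were lower at an unadjusted p under 0.05, and no frame passed the interaction test (7 at an unadjusted p under 0.05). Relative to the mean of 8 libraries their median level, in log2, was -0.18 and -0.26 in WT against -0.60 and -0.67 in psh1, and 0.56 and 0.53 in cac2 against 0.28 and 0.35 in psh1 cac2. Both psh1 libraries were below WT and both psh1 cac2 libraries were below cac2, while psh1 cac2 remained above WT. Ty frames took 20.2% and 19.4% of recovered reads in WT against 15.7% and 15.2% in psh1, and 30.4% and 30.1% in cac2 against 26.2% and 27.5% in psh1 cac2. This share was lower without PSH1 in each CAC2 state, as the lists above were higher, and its part in their results was not tested. With the Ty frames left out of the fit 1310 features were called.

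Genes near chromosome ends leaned lower. Of 214 genes within 20 kb of an end 57 fell (26.6%) and 8 rose (3.74%), beside 10.6% and 11.9% of all features. The list's median was -0.12 (-0.16 with CAC2 and -0.05 without it). Taken alone, 42 fell in psh1 against WT and 0 in psh1 cac2 against cac2 by limma. In the latter 43 were lower and 15 higher at an unadjusted p under 0.05. None passed the interaction test by limma, though 41 had a higher and 8 a lower difference without CAC2 at an unadjusted p under 0.05. The fall of AAD6, named next, came mainly from the strains with CAC2, as given further below. The list holds 2 Ty frames. Genes that fell included AAD6 (-1.06), AAD15 (-0.89) and AAD3 (-0.62) of the aryl-alcohol dehydrogenase family and the acid phosphatase genes PHO11 (-0.28) and PHO12 (-0.27), which are close paralogs and may share reads, and the serine deaminase gene CHA1 rose (0.51). The 57 went to 23 without psh1 cac2 replicate 1, 25 and 35 without psh1 replicates 1 and 2, 32 without cac2 replicate 1, 34 without psh1 cac2 replicate 2 and 35 without WT replicate 1. It was 33 with scaling to total reads.

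Many small nucleolar and spliceosomal RNAs fell. Of 80 features 37 fell (46.3%) and 1 rose, with a median of -0.26 (-0.15 with CAC2 and -0.39 without it). Taken alone, 3 fell in psh1 against WT and 21 in psh1 cac2 against cac2, and none passed the interaction test by limma, though 31 were further down without CAC2 at an unadjusted p under 0.05. The spliceosomal RNA gene SNR14 had RPKM of 60.6 and 53.6 in WT against 41.2 and 37 in psh1, and 72.8 and 65.6 in cac2 against 35.3 and 39.5 in psh1 cac2. All libraries lacking PSH1 were below those with it, and the difference was -0.70 (log2, SE 0.0675, limma adjusted p = 0.00426), with -0.54 with CAC2 and -0.87 without it. SNR32 had RPKM of 225 and 198 in WT against 189 and 148 in psh1, and 179.7 and 186 in cac2 against 99.7 and 107 in psh1 cac2, so that psh1 replicate 1 was above both cac2 libraries. Its difference was -0.58 (log2, SE 0.0837, limma adjusted p = 0.00632). SNR3 (-0.51), SNR34 (-0.47), SNR4 (-0.56) and SNR63 (-0.50) were other examples, and SNR39 rose (0.39). Of other structured RNAs, looked up after these values were seen, NME1 of RNase MRP fell by 0.40, RPR1 of RNase P fell by 0.23, and SCR1 of the signal recognition particle had 0.03 (limma adjusted p = 0.709). Without cac2 replicate 1 or psh1 replicate 2 the 37 were 24.

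Some phosphate, iron and zinc genes fell. Of 28 phosphate regulon genes 13 fell and 0 rose (46.4%), with a median of -0.16 (-0.09 with CAC2 and -0.19 without it). PHO84 (YML123C, chrXIII:24037-25800, - strand), the high-affinity phosphate transporter, had RPKM of 634 and 609 in WT against 476 and 464 in psh1, and 509 and 399 in cac2 against 264 and 276 in psh1 cac2. Each mutant pair was below its PSH1 counterpart, and the difference was -0.57 (log2, SE 0.0779, limma adjusted p = 0.00615). PHO81, the inhibitor of the pathway's kinase (-0.27), the acid phosphatase gene PHO5 (-0.34) and PHM6 (-0.49) fell too. Without cac2 replicate 1 and psh1 cac2 replicate 1 the 13 were 8 and 6. Of 30 iron regulon genes 10 fell and 1 rose (33.3% and 3.33%), beside 10.6% and 11.9% of all features. The iron list's median was -0.17 (-0.14 with CAC2 and -0.17 without it), and 4 fell without psh1 cac2 replicate 1. The siderophore transporter gene ARN1 had RPKM of 28.8 and 31.9 in WT against 15.5 and 17.2 in psh1, and 33 and 34.7 in cac2 against 22.8 and 29.2 in psh1 cac2. Its difference was -0.61 (log2, SE 0.0796, limma adjusted p = 0.00609). FRE1, a cell-surface ferric and cupric reductase, had RPKM of 57.8 and 64.3 in WT against 20 and 34.2 in psh1, and 88.7 and 83.7 in cac2 against 48.4 and 63.3 in psh1 cac2. Its difference was -0.91 (log2, SE 0.157, limma adjusted p = 0.00839), while the multicopper oxidase gene FET3 rose (0.33). The element CACGTG of the phosphate activator Pho4 was found upstream of 64.3% of the phosphate list and 5.77% of all, and GCACCC of the iron activator Aft1 upstream of 83.3% of the iron list and 6.75% of all. In the nearer window the shares were lower, at 25% against 2.96% for CACGTG and 53.3% against 4.32% for GCACCC. The lists were drawn up around these pathways, so such shares describe the lists and not the loss of PSH1. Among all protein-coding genes that fell, the upstream shares were 6.91% for CACGTG and 7.68% for GCACCC. In the nearer window they were 2.88% and 6.14%. A promoter of each list is shown in gene direction from R64, with the elements in capitals.
PHO84 (chrXIII:26195-26250, - strand): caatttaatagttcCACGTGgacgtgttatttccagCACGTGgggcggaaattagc
ARN1 (chrVIII:21209-21246, - strand): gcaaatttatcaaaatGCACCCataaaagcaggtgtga
In a zinc list of 16 genes, drawn up after ZAP1 and ZRT2 had been seen, 4 fell and 1 rose. That is 25% and 6.25%, beside 10.6% and 11.9% of all features, and ZAP1 and ZRT2 are among the 4. The zinc activator gene ZAP1 (-0.59), the transporter genes ZRT1 (-0.45) and ZRT2 (-0.57), and ZRC1 (-0.31) fell, and PIS1 rose (0.26). The ZAP1 call was lost in 9 alternative fits, among them those without WT replicate 1 or 2, cac2 replicate 1 or 2, psh1 replicate 1 and psh1 cac2 replicate 1, where its difference ran from -0.65 to -0.41.

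After PSH1 itself, PDC6 and PMA2 had the largest decreases of the named genes. PDC6 (YGR087C, chrVII:651290-652981, - strand), for a minor pyruvate decarboxylase, had RPKM of 134 and 144 in WT against 34.2 and 48.7 in psh1, and 138 and 97.1 in cac2 against 49.3 and 87.4 in psh1 cac2. All libraries lacking PSH1 were lower, though psh1 cac2 replicate 2 was close to cac2 replicate 2, and the difference was -1.27 (log2, SE 0.197, limma adjusted p = 0.00643). PMA2, a plasma membrane proton pump isoform, had RPKM of 222 and 241 in WT against 62.8 and 94.6 in psh1, and 217 and 179 in cac2 against 99.6 and 150.0 in psh1 cac2. Its difference was -1.13 (log2, SE 0.162, limma adjusted p = 0.00632). The spore wall gene SPS100 had RPKM of 91.6 and 84.3 in WT against 41.6 and 49.9 in psh1, and 108 and 70.4 in cac2 against 31.4 and 51 in psh1 cac2. Its difference was -1.02 (log2, SE 0.176, limma adjusted p = 0.00831). RTC4 (-0.91), the elongation factor gene HEF3 (-0.75), MOH1 (-0.72) and its neighbour RRT1 (-0.74), the cysteine transporter gene YCT1 (-0.62), SDH9 (-0.65), IRC18 (-0.57) and CRR1 (-0.54), which lies beside FRE1, were also in the plot of named genes by library. RTC4 lost its call without a filter on low values and without WT replicate 2, either cac2 library or psh1 cac2 replicate 1, and HEF3 without cac2 replicate 1, psh1 replicate 1 or psh1 cac2 replicate 1.

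Genes of the oxidative stress activator Yap1 and of detoxification fell in the strains with CAC2. Of 52 genes 18 fell and 2 rose (34.6% and 3.85%), with a median of -0.18 (-0.35 with CAC2 and 0.10 without it). In psh1 against WT 24 fell, and in psh1 cac2 against cac2 0 fell by limma, with 2 lower at an unadjusted p under 0.05. The glutathione transferase gene GTT2 had RPKM of 277 and 338 in WT against 83 and 95.9 in psh1, and 289 and 402 in cac2 against 308 and 341 in psh1 cac2. It was low in the psh1 libraries and within the range of the others in psh1 cac2, with -1.77 with CAC2 and -0.07 without it and an averaged difference of -0.92 (log2, SE 0.117, limma adjusted p = 0.00609). AAD6 (-2.01 with CAC2 and -0.10 without it) and the nitroreductase gene FRM2 (-2.00 with CAC2 and -0.15 without it) had the same form. Neither these nor any other gene of the list passed the interaction test by limma (29 had a higher difference without CAC2 at an unadjusted p under 0.05). GND1, of the pentose phosphate pathway, rose (0.51). The count of 18 was 5 in a model without the interaction, 8 without psh1 cac2 replicate 1, and 9 and 7 without psh1 replicates 1 and 2. The element TTACTAA was found upstream of 43.1% of the list and 9.03% of all, and in the nearer window 19.6% against 7.64%. The list was drawn up around Yap1, so these shares describe the list and not the loss of PSH1. Among all protein-coding genes that fell, 11.7% had the element upstream and 11.1% in the nearer window. OSI1, with -2.33 with CAC2 and 0.39 without it, holds it 5 times, shown in gene direction from R64 with the elements in capitals.
OSI1 (chrXI:304876-304974, + strand): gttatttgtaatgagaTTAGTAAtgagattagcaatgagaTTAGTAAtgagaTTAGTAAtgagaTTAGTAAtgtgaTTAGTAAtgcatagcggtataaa

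Some biosynthetic lists rose in part. Of 29 purine and pyrimidine synthesis genes 10 rose and 0 fell (34.5%), among them GCV3 (0.39), URA1 (0.43) and IMD3 (0.41). Of 30 ergosterol genes 10 rose and 2 fell, among them ERG20 (0.32) and ERG27 (0.26), with the heme-responsive activator gene HAP1 (-0.33) falling. These counts of 10 went to 3 to 5 without psh1 cac2 replicate 1 or either psh1 library, for ergosterol genes also without cac2 replicate 1 (5), and for purine and pyrimidine genes also without WT replicate 2 (6) or cac2 replicate 2 (5) and in a model without the interaction (6). Of 33 glycolysis genes 6 rose and 1 fell, and 1 or 2 rose without cac2 replicate 1, psh1 cac2 replicate 1 or psh1 replicate 2, and 10 with scaling to total reads. In 42 meiosis and sporulation genes 4 rose and 7 fell. For 29 nitrogen catabolite genes 2 rose and 5 fell, and the 5 went to 1 or 2 without WT replicate 1, cac2 replicate 1, psh1 replicate 1 or either psh1 cac2 library, and to 3 with scaling to total reads or without the interaction. All counts in this paragraph stand beside 11.9% higher and 10.6% lower over all features. The shares that rose and fell were 33.3% and 6.67% of ergosterol genes and 18.2% and 3.03% of glycolysis genes. For meiosis and sporulation genes they were 9.52% and 16.7%, and for nitrogen catabolite genes 6.9% and 17.2%. The remaining lists follow. They were heat shock and chaperone genes (3 higher and 3 lower of 31), Gcn4 amino acid genes (2 and 3 of 56), hexose transporter and sensor genes (4 and 2 of 23), sulfur and methionine genes (3 and 0 of 28), glycogen and trehalose genes (2 and 0 of 20), pheromone response genes (2 and 3 of 26), a-specific genes (0 and 1 of 5) and alpha-specific genes (0 and 1 of 4).

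**Figure D5:**
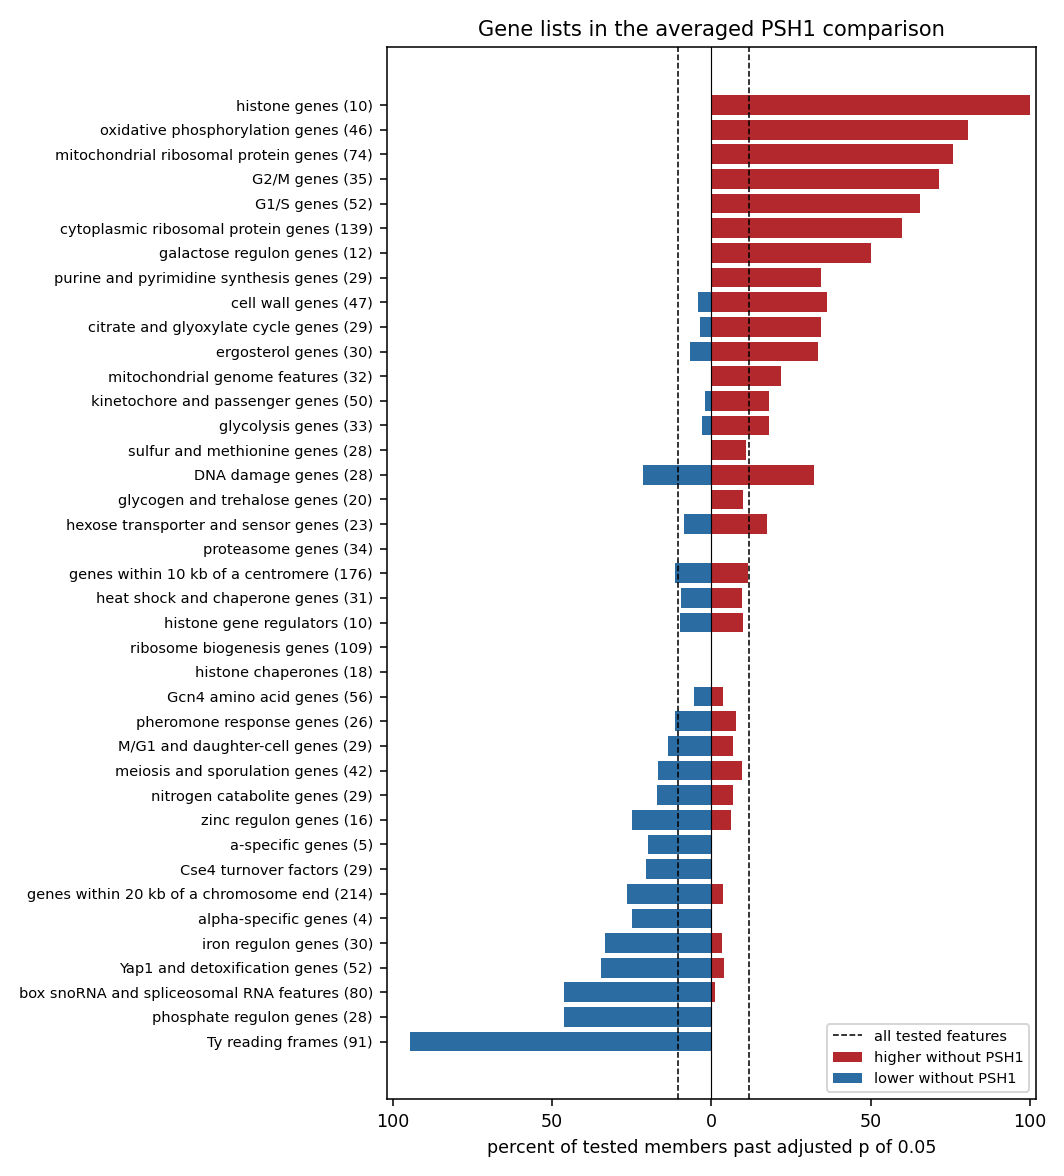
For each of 39 gene lists, with the number of tested members in brackets, bars to the right give the percent that rose and bars to the left the percent that fell without PSH1 in the averaged comparison (limma adjusted p under 0.05). Dashed lines mark the shares over all tested features, 11.9% higher and 10.6% lower. Histone, oxidative phosphorylation, ribosomal protein, G1/S and G2/M lists lie far to the right, and Ty frames, phosphate genes and small structured RNAs to the left.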

How the data were processed

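Ribosome-depleted RNA of 8 yeast libraries was compared. The authors deposited 1 table of RPKM values for 7126 features on a linear scale. Build sacCer3 and, as tools without a stated role, TopHat2 2.0.13, edgeR 3.14.0 and bcl2fastq 2.18 come from the submitters' processing notes. The counting tool and strand setting were not given in the sources used here, so a gene and an overlapping or antisense partner may share reads. Names come from RefSeq's R64 annotation, the assembly that sacCer3 names: 6048 features matched by locus tag, 114 by symbol, 7 by synonym and 957 not at all. Coordinates count from 1.

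RPKM times gene length gave whole reads in 99.8% of values, within 0.01 reads, and read totals were recovered from these steps. The authors' library size was 0.932 to 1.07 times that total, lowest in cac2 and highest in psh1. Read totals speak to counting error only.

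The 6366 features whose mean RPKM reached 1 (760 did not) were tested as log2(RPKM + 1), a scale that understates the change of low genes. Limma 3.58.1 in R 4.3.3 fitted 4 genotype means to all 8 libraries, with an intensity trend, leaving 4 residual and 3.85 prior degrees of freedom. Two-sided p-values were adjusted over all features of a contrast (Benjamini-Hochberg). The members and gene lists (37, and 2 added) were chosen with earlier results of these data known. Named genes are PSH1, CAC2, CSE4 and HIS3, then the 20 higher and 20 lower called genes with a symbol and the largest averaged difference whose libraries are separated within each CAC2 state, genes called in opposite directions in the CAC2 states, and up to 4 genes a list with the smallest p. Further list members and the genes said to be looked up were chosen after their values were seen. Promoters were read from the R64 genome, and the window from 500 bases before the start codon, without the nearest 100, was added after the data were seen. There were 12 alternative settings and 8 fits that each left out 1 library.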

Additional observations from a re-analysis of the deposited data

Results flagged for a closer look

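The isoleucine tRNA gene tI(UAU)D differed in its response between the CAC2 states by a test of the difference itself. Its RPKM were 13.7 and 13.4 in WT against 6.79 and 7.13 in psh1, and 2.21 and 3.01 in cac2 against 17.7 and 20.97 in psh1 cac2. Its log2 difference was -0.87 with CAC2 and 2.50 without it, and the interaction was 3.36 (limma adjusted p = 0.000318), with a range of 3.21 to 3.52 over the fits that each left out 1 library. Its averaged rise of 0.81 therefore describes neither state. The gene is short and rests on few reads, from 9 to 94 in a library taking the shortest length at which all values are whole. GCD6, for a subunit of the translation initiation factor eIF2B, was the other gene called in opposite directions, at -0.29 with CAC2 and 0.52 without it, but its interaction did not pass (limma adjusted p = 0.0802).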

How the results depend on the processing

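Of the 40 genes named for the largest rise or fall among those separated within each CAC2 state, 35 were called in the same direction under every alternative, and the exceptions were ZAP1, RTC4, HEF3, MLS1 and CLB1. No named gene changed sign. Scaling to total reads gave 1258 higher, 408 lower, 140 calls with CAC2 absent and 82 called in both states. Without a filter on low values 2 calls were left with CAC2 absent and 1 in both states, and without the intensity trend 12 and 8. The interaction had 5 calls with quantile normalization and 4 with voom weights. With 1 library left out at a time, the averaged contrast had 546 to 1083 calls (275 to 586 higher and 271 to 526 lower), the interaction 1 to 41, both states 1 to 8, CAC2 present 93 to 826 and CAC2 absent 2 to 32. The model without an interaction gives no value for the interaction or for either state. The cause of these shifts was not tested. The fits that each left out 1 library also hold fewer libraries, and the part of that was not tested either. Deviations of same-numbered libraries correlated at 0.34, 0.309 and 0.335 between WT and, in turn, psh1, cac2 and psh1 cac2. The value was 0.443 between psh1 and psh1 cac2, 0.0536 between psh1 and cac2, and 0.038 between cac2 and psh1 cac2. Whether replicate numbers pair the samples was not tested, and the main fit had no replicate block. A fit with the replicate number as a block gave 2058 averaged calls, 1625 with CAC2 present, 520 with CAC2 absent, 257 in both states and 130 for the interaction. With 2 libraries a genotype no library was tested as an outlier.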

Other observations

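Features of the mitochondrial genome, a list drawn up after values had been seen, leaned higher without PSH1. Of 32 tested 7 rose and 0 fell (21.9%, against 11.9% of all features), with a median of 0.18 (0.10 with CAC2 and 0.23 without it). They included OLI1 (0.20) and COX3 (0.18), for subunits of the ATP synthase and of cytochrome c oxidase. The count was 0 without psh1 cac2 replicate 1, 1 without cac2 replicate 1, 3 without WT replicate 1, psh1 replicate 1 or psh1 replicate 2, 4 without a filter on low values or without the interaction in the model, and 15 with scaling to total reads.

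Ribosomal RNA left after depletion varied between libraries. RDN25-1 had RPKM of 381 and 109 in WT against 158 and 88.8 in psh1, and 105 and 29.9 in cac2 against 309 and 169.5 in psh1 cac2. Libraries of 1 genotype differed widely. Its difference was -0.78 with CAC2 and 2.00 without it, and neither the average (limma adjusted p = 0.411) nor the interaction (limma adjusted p = 0.3) passed. Of the 1592 features with a mean RPKM of 69.1 or more, 20.2% were called higher and 12.7% lower, against 8.29% and 8.1% of the 1592 with the lowest mean RPKM. AIM39, the gene that follows PSH1 on chromosome XV, rose by 0.28 (log2, SE 0.0567, limma adjusted p = 0.0139), and THI20 on the other side had -0.12 (limma adjusted p = 0.103).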
